A study of Rattus norvegicus with 3 samples.

Results

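The genes of antigen presentation by major histocompatibility complex (MHC) class II were followed in blood mononuclear cells of control rats and of rats that ran on a treadmill. The set held 10 genes of the 13893 that the array named, chosen by symbol: the chain genes RT1-Ba, RT1-Bb, RT1-Da and RT1-Db1, the loading genes RT1-DMa, RT1-DMb and Cd74, the processing genes Ifi30 and Ctss, and the transactivator Ciita. They were read by 15 probe sets, sets of short probes that each report on a transcript, of 31099 on the array. RNA came from peripheral blood mononuclear cells (a fraction rich in lymphocytes and monocytes) of male Sprague-Dawley rats aged 2 months. The groups were control, downhill treadmill running and uphill treadmill running, with 1 Affymetrix rat expression array each. The labels call the control group only by that name, and they state neither how many rats an array stands for nor when blood was drawn. A single array stood for each group, so the spread between samples is unknown, no difference carries a p-value, and each comparison is between arrays rather than conditions.

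Class II molecules show peptides from engulfed protein to helper T cells and are made mainly by B cells, dendritic cells and monocytes. Rats have the class II pairs RT1-B and RT1-D, each of an alpha and a beta chain. In the endoplasmic reticulum the pair binds the invariant chain Cd74, which is cut in endosomes by cathepsin S (Ctss) until a fragment remains in the groove, and RT1-DM then exchanges this fragment for peptide. Ifi30 is a thiol reductase that opens disulphide bonds of the engulfed protein. Transcription of the chain, loading and invariant chain genes depends on Ciita, a coactivator that docks on proteins bound to the X and Y boxes of their promoters. Some of the chain genes are highly polymorphic, and Sprague-Dawley rats are an outbred stock.

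The median intensity over all probe sets was 216.51 to 228.74 on the 3 arrays, and 52.4% to 54.4% of probe sets were called present. Of the marker genes on the array, 13 of 13 for T cells, 9 of 9 for B cells and 13 of 15 for monocytes were called present on at least 1 array. So were 9 of 9 for neutrophils, 7 of 7 for platelets and 8 of 9 for erythroid cells.

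The shared control elements of the class II genes are shown first, because the X and Y boxes are known from the promoters of the chain, loading and invariant chain genes. RefSeq promoter windows (250 bases before to 50 after the transcript start, assembly GRCr8) were given for 8 of the 10 genes, all but RT1-DMb and Ciita. Both strands were searched. The Y box was taken as ATTGG. The strict X box was AG, any 2 bases, AC, any base and GATG, and the loose X box was G, any 2 bases, AC, any 3 bases and TG, so that every strict match also holds a loose one. Capitals mark X and Y box matches on either strand, and each sequence is written 5′ to 3′ on the gene's strand.
RT1-Da (chr20:4515317-4515380, plus strand): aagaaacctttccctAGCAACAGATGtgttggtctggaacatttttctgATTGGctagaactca
RT1-Db1 (chr20:4560228-4560290, minus strand): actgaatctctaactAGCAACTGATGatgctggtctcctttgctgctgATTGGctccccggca
RT1-Bb (chr20:4604165-4604227, minus strand): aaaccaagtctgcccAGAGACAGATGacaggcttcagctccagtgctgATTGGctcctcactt
RT1-DMa (chr20:4712385-4712447, minus strand): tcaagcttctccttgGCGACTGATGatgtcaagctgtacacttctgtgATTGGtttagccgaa
RT1-Ba (chr20:4576964-4577028, plus strand): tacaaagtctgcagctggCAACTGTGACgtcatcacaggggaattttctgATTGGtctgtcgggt
Cd74 (chr18:56526967-56527031, plus strand): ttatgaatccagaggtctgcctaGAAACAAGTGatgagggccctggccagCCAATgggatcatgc

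The strict X letters lay 22 or 23 bases before the Y letters in the promoters of RT1-Da, RT1-Db1 and RT1-Bb. In RT1-DMa the loose X letters lay 23 bases before ATTGG. RT1-Ba held ATTGG at -43 but the loose X letters only on the other strand, and Cd74 held the loose X letters with the Y letters reversed. Strict X letters occurred in 0.95% of 33469 promoter windows, loose X letters in 39.8% and Y letters in 37.5%. Strict X letters up to 40 bases before Y letters on the same strand occurred in 14 windows (0.0418%), and loose ones in 623 (1.86%). Of those 14, 7 had 20 to 25 bases between the letters, and 6 of these 7 were MHC genes, namely RT1-Da, RT1-Db1, RT1-Db2, RT1-Bb, RT1-DOb and the class I gene RT1-CE10. The other 7 had at most 4 bases between, and several of them were windows of the single gene Vamp9. The range of 20 to 25 bases was not fixed before the search. The X box is known from class II promoters, so the share of MHC genes is a description and no test. No X or Y letters were found in the window of Ifi30, and that of Ctss held only reversed Y letters after its start. A match is a run of letters and not a measured binding site.

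**Figure D1:**
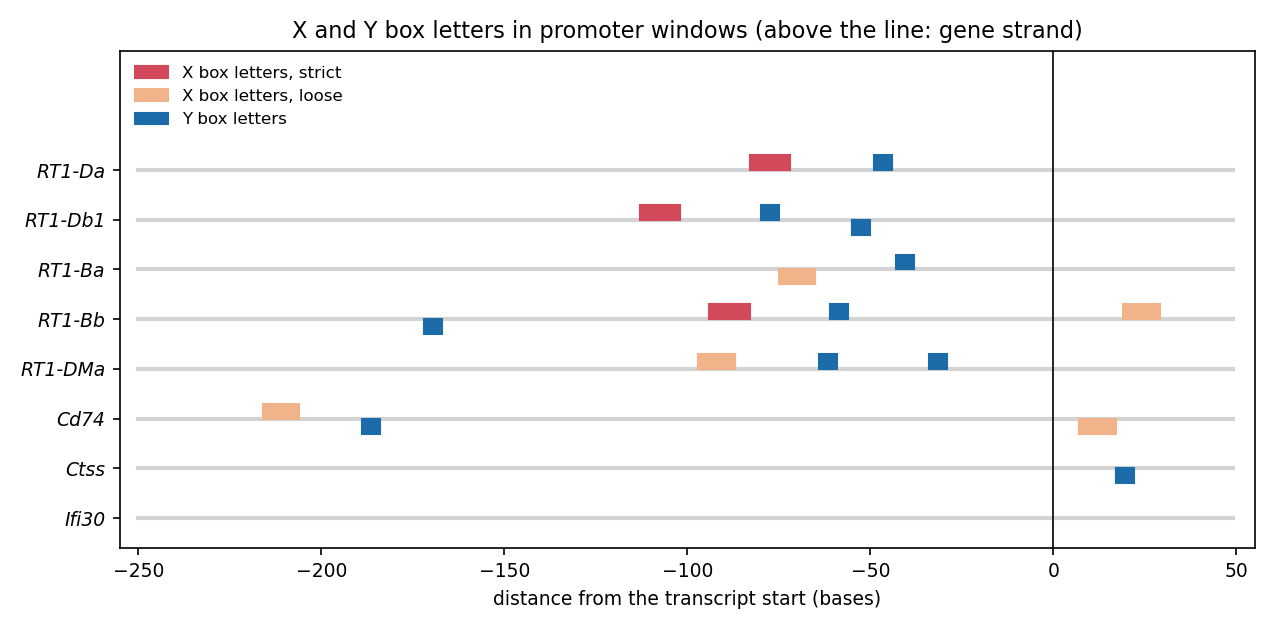
Positions of X and Y box letters in the promoter windows of 8 class II genes, by distance from the transcript start in bases, drawn above the line on the gene's strand and below it on the other strand; strict X matches cover the loose ones inside them. RT1-Da, RT1-Db1 and RT1-Bb have strict X letters 22 or 23 bases before Y letters, while Ifi30 has neither.

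The alpha and beta chain genes were compared first. Their probe sets for the same gene gave different answers. RT1-Bb, the beta chain of RT1-B (chromosome 20, 4730559 to 4736179 on the minus strand, Rnor3.4 assembly), was read by the probe sets 1371033_at and 1371065_at, both of which the deposited annotation also assigns to LOC688090. Probe set 1371033_at had an intensity of 44.96 in control, 2871 in downhill and 2894 in uphill. The control array stood far below both running arrays, which nearly coincided. The control value was called present, but only 8.37% of the 13895 probe sets called absent on that array were dimmer, so the size of the difference is given as a bound. Values were counted only where at least 1 of the 2 arrays compared was at 353 or above, which is the median over all genes and serves as a floor. With the control value raised to that floor, the difference was at least 8.13-fold for downhill and at least 8.2-fold for uphill. With values treated this way and probe sets absent on both arrays left out, a setting chosen after seeing the data, it ranked 1st of 10855 probe sets for downhill and 6th of 11066 for uphill. The deposited intensities themselves give log2 differences of 6.0 and 6.01, which rest on the dim control value.

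Probe set 1371065_at of the same gene read 3965 in control, 3177 in downhill and 3813 in uphill. Here the control array was the brightest, by 1.25-fold over downhill and 1.04-fold over uphill. The 2 probe sets therefore gave opposite directions for the same gene. According to the deposited annotation, 9 probes of 1371033_at match the RefSeq transcript of RT1-Bb. For this probe set 3 matched transcripts are listed, and no strain allele is named. For 1371065_at no probe match is listed, and its target sequence is aligned to 16 transcripts, among them RT1-Bb alleles of 10 named rat strains. The MHC type of the rats was not given, and its part in these values was not tested.

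RT1-Db1, the beta chain of RT1-D (4671488 to 4681001, minus strand), had probe sets that differed in size but not in direction. Both of its probe sets were designed from the same sequence. Probe set 1370382_at read 692.32 in control, 1500 in downhill and 1519 in uphill. Both running arrays were again nearly equal, at 2.17 and 2.19 times the control. Probe set 1370383_s_at read 4442, 5079 and 5783 in that order, ratios of 1.14 and 1.3. In the deposited annotation 11 probes of 1370383_s_at match the RefSeq transcript of RT1-Db1, whereas 4 probes of 1370382_at do and 11 match another RT1-D beta mRNA.

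RT1-Ba, the alpha chain of RT1-B (4697998 to 4702567, plus strand), had 4 probe sets. The one with the highest mean, 1370822_at, read 5429 in control, 6432 in downhill and 7921 in uphill, ratios of 1.18 and 1.46. Probe set 1377334_at went the other way, with 5045, 4728 and 4470. In the deposited annotation 3 probes of 1370822_at match the RefSeq transcript of RT1-Ba. For 1377334_at no probe match is listed, and its target sequence is aligned to 21 transcripts. Probe sets 1381593_x_at and 1392334_at, designed from another shared sequence, were called absent on all 3 arrays, so no fold is given for them. Their intensities were 524.68, 2191 and 1686 for the first, and 1167, 1030 and 908.01 for the second. The first was lowest on the control array and the second highest, although 11 probes of each are annotated to the same RefSeq transcript. The annotation of 1370822_at also records how its match depends on the strain. Of its probes, 8 match the RT1-Ba allele of F344/CrCrlBR and LEW/CrlBR rats, 6 that of WF/CrCrlBR and BB/DR rats, 3 that of BN/CrlBR, BUF/CrCrlBR and SHR/NCrlBR rats and 2 that of ACI/SegHsd, BDIX/CrCrlBR and PVG/OlaHsd rats.

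RT1-Da, the alpha chain of RT1-D (4636332 to 4641282, plus strand), had a single probe set with 12881 in control, 13503 in downhill and 14693 in uphill. The 3 values lay close together, at ratios of 1.05 and 1.14 to control.

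**Figure D2:**
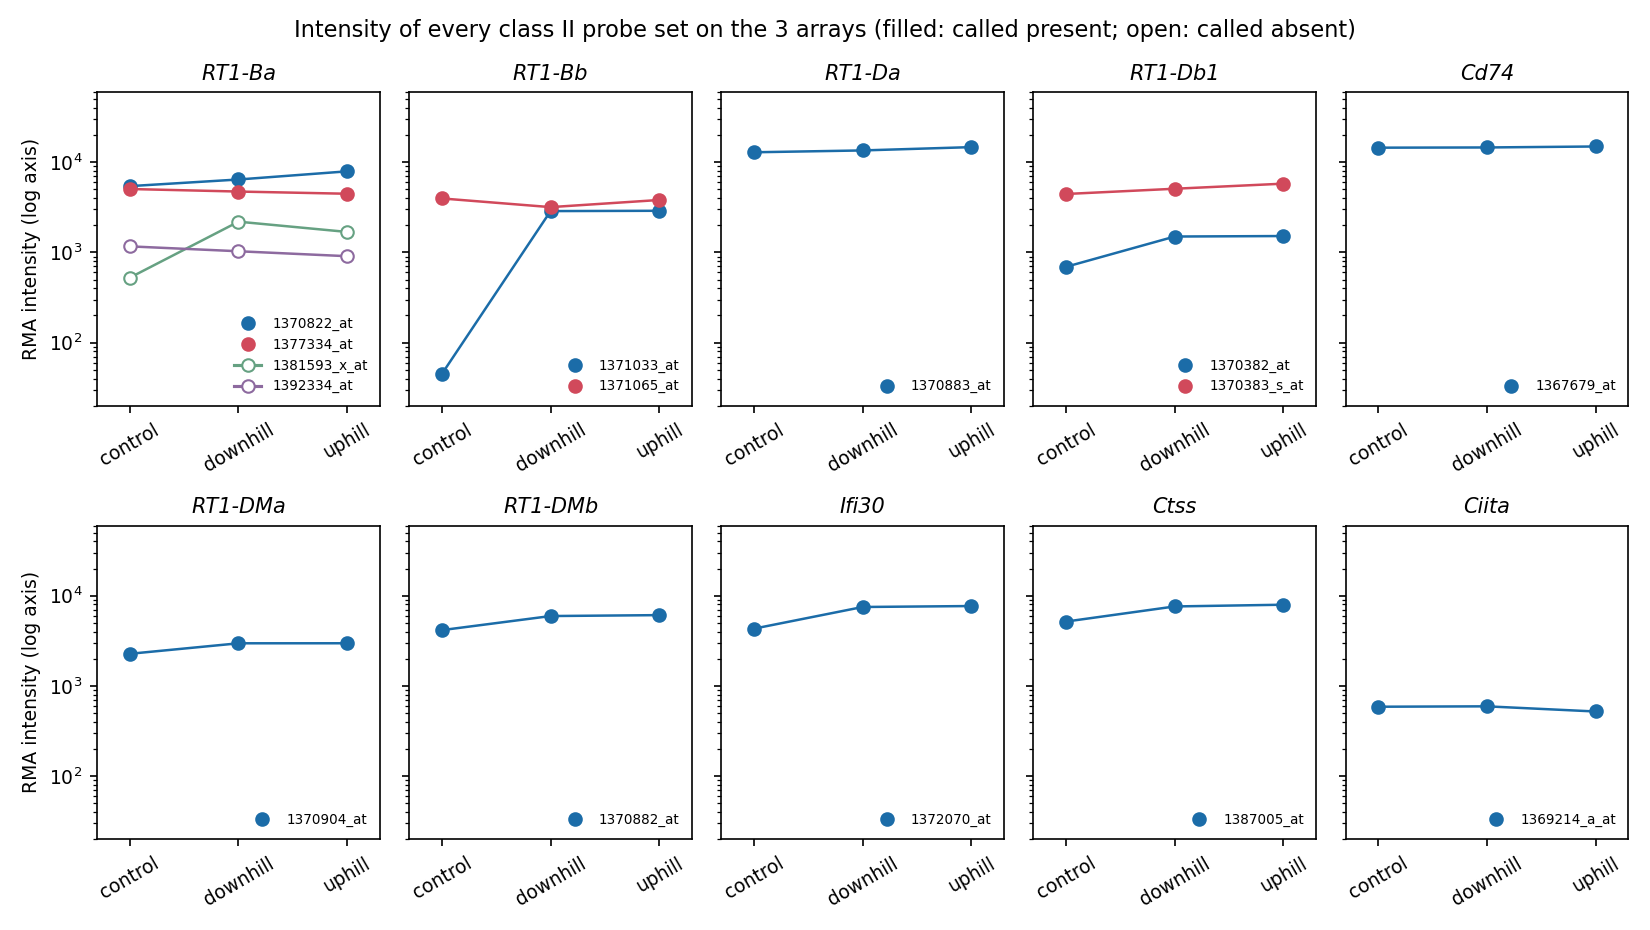
RMA intensity on a log axis of the 15 class II probe sets on the control, downhill and uphill arrays, 1 panel per gene, with lines joining the values of a probe set. RT1-Bb probe set 1371033_at goes from 44.96 to 2871 and 2894, while 1371065_at of the same gene stays between 3177 and 3965.

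The disagreement between probe sets was set against that of other genes. Over 1270 genes with several probe sets bright enough in the downhill comparison, the range of the log2 difference between probe sets of a gene had a median of 0.17, and the widest 1 in 20 exceeded 0.71. By the deposited values RT1-Bb had a range of 6.32, RT1-Ba 2.24 and RT1-Db1 0.92, but the first rests on a control value near background and the second on a probe set called absent. The ranges were therefore compared again with values raised to the floor and without probe sets absent on both arrays. Then RT1-Bb still had the widest range of 1168 genes for downhill (3.34) and of 1204 genes for uphill (3.09). RT1-Db1 ranked 17th for downhill (0.92) and 56th for uphill (0.75), where the widest 1 in 20 exceeded 0.62 and 0.72. RT1-Ba fell back to 227th (0.34) and 64th (0.72). Between the running arrays the ranks of 1180 genes were 468th for RT1-Bb, 661st for RT1-Db1 and 247th for RT1-Ba. Of the 15 class II probe sets, 3 were at least 2-fold higher on the downhill array than on the control array, 1 of them absent, against 0.842% of all probe sets bright enough. The same 3 passed on the uphill array, against 0.9% of all.

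**Figure D3:**
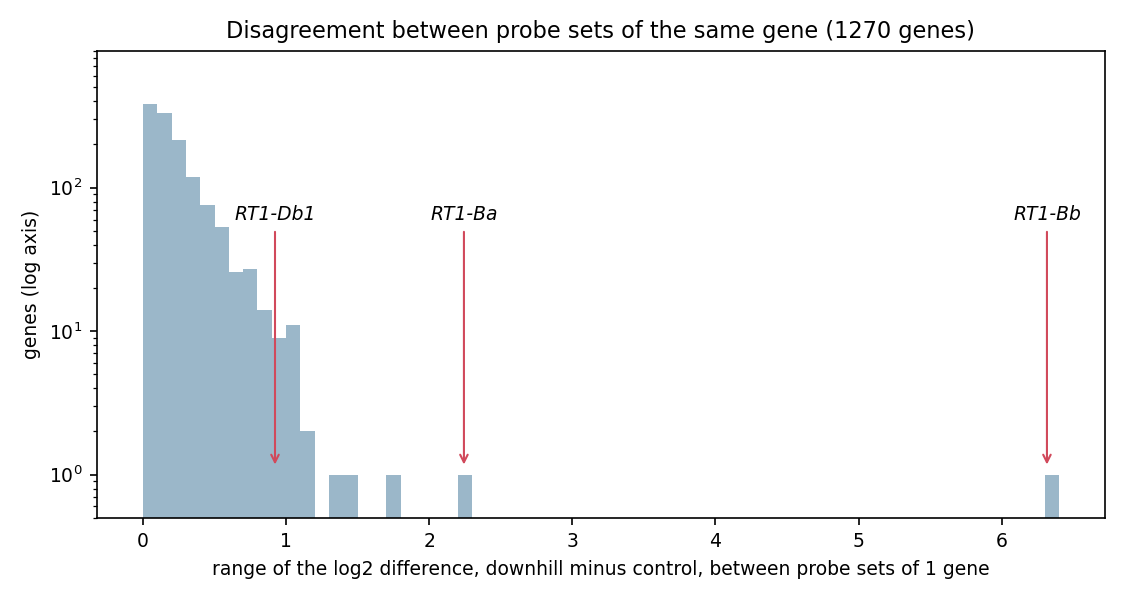
Number of genes (log axis) by the range of the log2 difference, downhill minus control, between probe sets of the same gene, for 1270 genes with several probe sets above the floor, by the deposited values. Arrows mark RT1-Db1 at 0.92, RT1-Ba at 2.24 (through a probe set called absent) and RT1-Bb at 6.32 (3.34 with its control value raised to the floor).

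Probe sets of the other RT1 genes, mostly class I, also went both ways. There were 33. The shares of all probe sets given here count those at the floor or above on at least 1 of the 2 arrays compared. For the RT1 probe sets all 3 arrays were used, and 27 reached the floor on at least 1 of them. Against control, 10 of these were higher in downhill and 9 in uphill, where 45.5% and 51.4% of all probe sets were higher, with log2 differences from -0.75 to 0.71 and from -1.01 to 0.69 and medians of -0.07 and -0.09. For downhill 1 was at least 1.5-fold higher (3.15% of all probe sets) and 3 lower (3.15%), and for uphill 1 was higher (3.67%) and 4 lower (3.99%).

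Of the genes that load peptide, RT1-DMa and RT1-DMb were higher on both running arrays and Cd74 was nearly level. RT1-DMa and RT1-DMb encode the alpha and beta chains of the exchange factor DM (chromosome 20, 4843458 to 4846827 and 4829534 to 4836722, both on the minus strand). RT1-DMa read 2270 in control, 2968 in downhill and 2970 in uphill. Both running arrays were 1.31-fold above the control. RT1-DMb read 4153, 5949 and 6091 in the same order, 1.43-fold and 1.47-fold above the control. For each, 11 probes match the RefSeq transcript, and neither has another probe set to set beside it. The invariant chain gene Cd74 (chromosome 18, 56756554 to 56765711, plus strand) read 14487, 14568 and 14935. The log2 differences of Cd74 were 0.008 and 0.04, and both turned negative with cyclic loess normalization (-0.03 and -0.02).

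The endosomal processing genes stood highest against control among the 10 genes by their brightest probe sets, below the RT1-Bb and RT1-Db1 probe sets 1371033_at and 1370382_at. Ifi30 (chromosome 16, 19181193 to 19185439, plus strand) read 4312 in control, 7496 in downhill and 7681 in uphill. Its ratios to control were 1.74 and 1.78, and its log2 difference exceeded that of 98.4% and 98.7% of genes. Ctss (chromosome 2, 190425289 to 190466879, plus strand) read 5168, 7601 and 7945. Its ratios were 1.47 and 1.54, above 96.2% and 97.1% of genes. For both genes the running arrays were close to each other and apart from the control.

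Ciita (chromosome 10, 5086632 to 5133418, minus strand) read 587.85 in control, 593.87 in downhill and 520.56 in uphill. Downhill was within 1.01-fold of control, and uphill was 1.13-fold below it. Intensities of different probe sets depend on their probes, so the levels of these genes are not ranked against each other.

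Taking the brightest probe set for each gene, 9 of 10 class II genes were higher on the downhill array than on the control array, against 49.3% of 7265 genes. Their median log2 difference was 0.22, beside -0.005 for all genes. Only Ifi30 was at least 1.5-fold higher, against 3.33% of all genes, and no member was 1.5-fold lower (2.34% of all genes, and 3.07% for uphill, where none was either). On the uphill array 8 of 10 were higher than on the control array, against 54.5% of 7320 genes, with a median of 0.38 beside 0.03 for all genes. Ifi30 and Ctss were at least 1.5-fold higher, against 3.28% of all genes, but Ctss fell under 1.5-fold with cyclic loess (log2 difference of 0.56) and quantile normalization (0.53). By the brightest probe set no member was 2-fold higher in either comparison, against 0.826% and 0.833% of all genes, or 2-fold lower, against 0.275% and 0.464%. Both comparisons share the control array, so their likeness is no separate observation.

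These counts depend on the probe set chosen. With the mean over all probe sets that a gene has, RT1-Bb was at 2.84 and 2.98 on the log2 scale (again resting on the dim control value). RT1-Db1 was at 0.65 and 0.76. RT1-Ba was at 0.51 in the downhill comparison, which rests on probe set 1381593_x_at, called absent on every array. The RT1-Ba probe sets called present were at 0.24 and -0.09 there. By the mean, 3 members were at least 1.5-fold higher in downhill and 4 in uphill. Without the 4 chain genes, the median of the other 6 was 0.45 and 0.47. That median was chosen after the values were seen. In blood cell RNA, more cells of a type and more RNA per cell cannot be told apart.

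**Figure D4:**
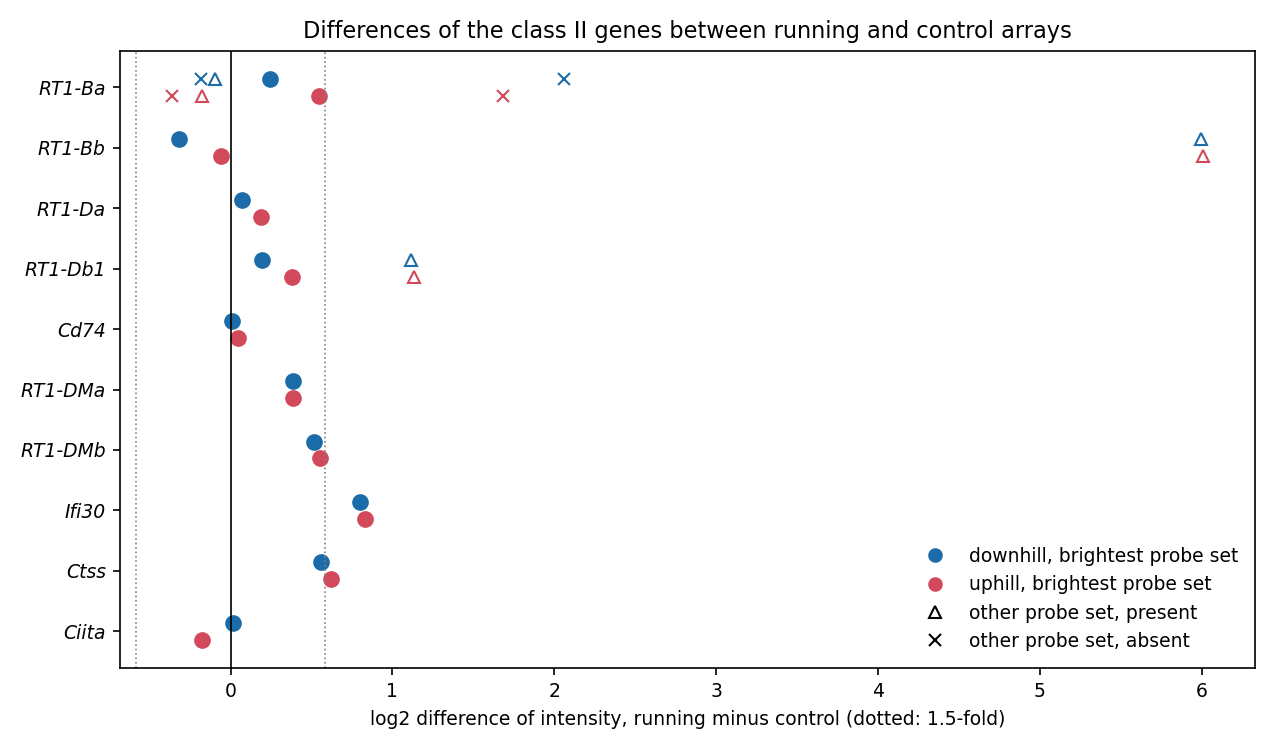
Log2 difference of intensity from the control array for each class II gene, downhill in blue and uphill in red; filled circles are the brightest probe set, triangles other probe sets called present and crosses those called absent. Ifi30 and Ctss lie highest among the circles, and the RT1-Bb triangles lie at 6.0 and 6.01, which rest on the dim control value.

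The downhill and uphill arrays were then set against each other directly. By the brightest probe set 1 of 10 members, Ciita, was higher on the downhill array, against 46.1% of 7171 genes, and the median was -0.05 beside -0.03 for all genes. No member differed by 1.5-fold, against 2.16% of genes higher and 2.2% lower, or by 2-fold, against 0.335% and 0.474%. The widest difference was that of RT1-Ba, 1.23-fold lower on the downhill array, followed by RT1-Bb at 1.2-fold lower. The direction depended on scaling: 5 of 10 members were higher on the downhill array after centring and 7 of 10 with quantile normalization, where the median was 0.016.

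The factors that act on class II promoters were next. Of 7 genes of the RFX complex, NF-Y and Creb1, 6 were bright enough. None was 1.5-fold higher or lower against control, where 3.33% and 2.34% of all genes were for downhill and 3.28% and 3.07% for uphill, and the medians were -0.03 for downhill and 0.10 for uphill. Rfxap, a subunit of the RFX complex that binds the X box, read 1156 in control, 1102 in downhill and 1722 in uphill. The uphill array stood apart, at a log2 difference of 0.58 from control, and downhill was 1.56-fold below it, against 2.2% of all genes lower by 1.5-fold or more. The NF-Y subunits Nfyb (0.26 and 0.27) and Nfya (-0.19 and -0.02) and the X box factor Creb1 (-0.33 and 0.03) had smaller differences. Interferon gamma induces Ciita in many cells. Its receptor chains Ifngr1 (0.26 and 0.80) and Ifngr2 (0.36 and 0.31) were higher on both running arrays, the kinase Jak2 (-0.43 and -0.12) was lower, and the inhibitor Socs1 was called absent on every array. The interferon gamma gene Ifng was called present on every array but lay below the floor. It read 175.17 in control, 168.69 in downhill and 89.43 in uphill, and is named after its values were seen. Of 7 genes of this list bright enough, 2 were higher for downhill and 4 for uphill, against 49.3% and 54.5% of all genes. Only Ifngr1 was 1.5-fold higher, on the uphill array, against 3.28% of all genes.

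Of other endosomal proteases and their inhibitors, all 11 were bright enough, and 9 were higher in downhill and 10 in uphill, against 49.3% and 54.5% of all genes. On the downhill array 6 were at least 1.5-fold higher, against 3.33% of all genes, with a list median of 0.61. On the uphill array 1 passed, against 3.28%, with a median of 0.38. Cathepsin L (Ctsl), which cuts the invariant chain in mouse thymic epithelium, read 1026 in control, 2757 in downhill and 1354 in uphill, so that the downhill array stood apart at 2.69 times the control. Cathepsin Z (Ctsz) had log2 differences of 0.84 and 0.37, and the cathepsin inhibitor Cstb 0.83 and 0.43. Cathepsin D (Ctsd) was lower on both running arrays (-0.10 and -0.29) and the inhibitor Cst3 on the downhill array (-0.24), both named after their values were seen. Lgmn, the asparagine endopeptidase of endosomes, was at 0.65 and 0.81. In contrast to Ctsl, Ctss and Ifi30 differed by at most 0.06 between downhill and uphill.

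Markers of the cells that carry class II molecules moved as follows. The summed intensity of the 15 monocyte markers was 40806 in control, 67442 in downhill and 64198 in uphill. Of the 12 bright enough, 11 were higher in downhill and 12 in uphill, against 49.3% and 54.5% of all genes, with medians of 0.96 and 0.60. At least 1.5-fold higher were 9 and 6, against 3.33% and 3.28% of all genes. Among them were the endotoxin receptor Cd14 (1.71 and 1.53), the proteoglycan Vcan (2.17 and 1.93) and the ficolin Fcna (1.25 and 0.79), and Cd163 and Ms4a7 were called absent on every array. Monocytes also express Ifi30 and Ctss, and the part of monocyte number in their difference was not tested. The 9 B cell markers summed to 14666, 14231 and 16967. Of the 8 bright enough, 3 were higher for downhill and 8 for uphill, with medians of -0.08 and 0.19. The shares of all genes higher, 49.3% for downhill and 54.5% for uphill, apply to this and to each marker count below. Ms4a1, the CD20 antigen, was higher on both running arrays (log2 differences of 0.33 and 0.34), Cd79b of the B cell receptor was lower on the downhill array (-0.36) and higher on the uphill array (0.18), and Fcrla (-0.05 and 0.41) and Cd37 (0.12 and 0.29) were higher on the uphill array. Dendritic cell markers summed to 3266, 4681 and 4625 over 7 genes, of which 4 were called present on any array. Clec10a, a lectin that monocytes also carry, gave most of that gain (1.88 and 1.79), Cd1d1 was at 0.44 and 0.36 and Tcf4 at 0.12 and 0.25, and Flt3 was called absent on every array. Of the other cells, T cell markers summed to 46691, 44807 and 47055, with 5 of 13 higher for downhill and 7 for uphill (medians -0.10 and 0.04). Neutrophil markers summed to 36057, 16176 and 33201, lowest on the downhill array. Of 7 bright enough, 0 were higher for downhill and 2 for uphill (medians -1.17 and -0.33). Erythroid markers summed to 2946, 2636 and 11759, highest on the uphill array, where 6 of 6 bright enough were higher. The brightest probe sets weigh most in such sums, as those of S100a8 and S100a9 do among the neutrophil markers. Natural killer cell markers summed to 28974, 33713 and 32735, with 8 of 9 higher for downhill and 7 of 9 for uphill (medians 0.35 and 0.24). Platelet markers summed to 68083, 57021 and 61772, and all 7 were lower, with 0 higher, on both running arrays (medians -0.36 and -0.22). The part of these cells in the class II values was not tested.

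**Figure D5:**
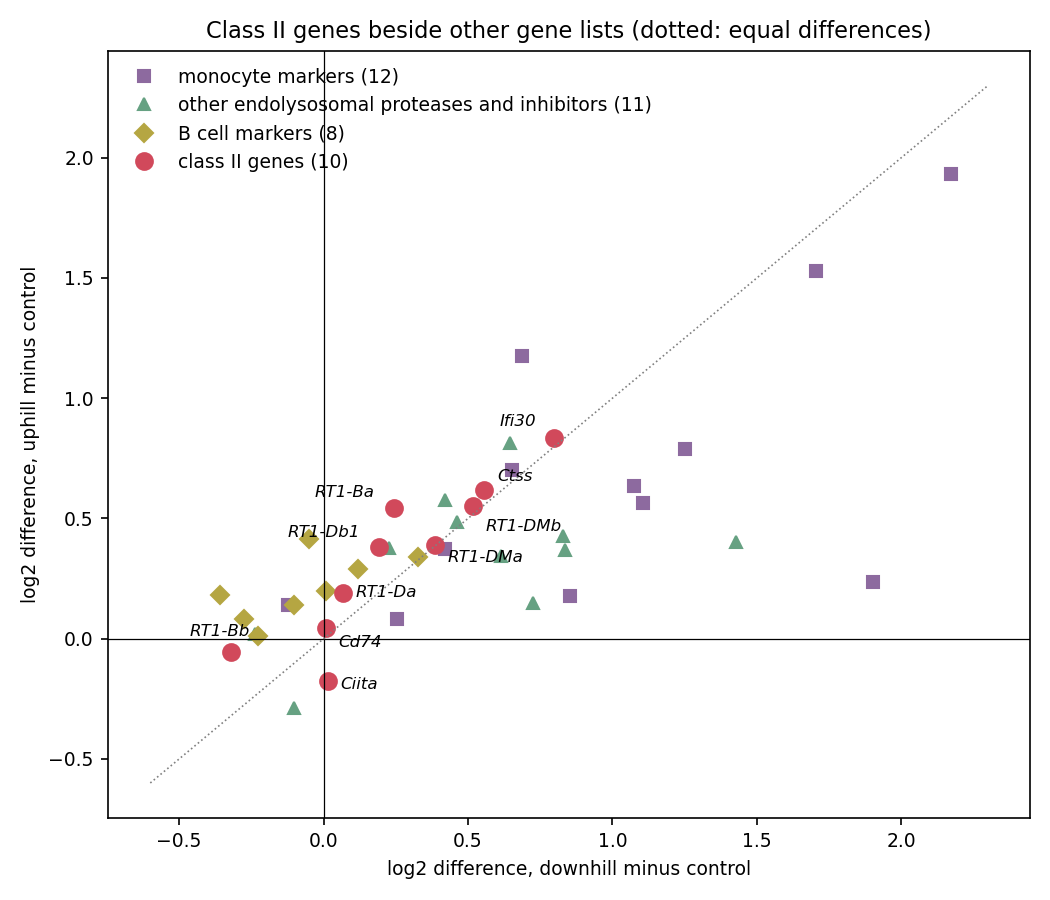
Log2 difference of intensity, downhill minus control against uphill minus control, for the 10 class II genes by their brightest probe set and for the monocyte, endosomal protease and B cell lists above the floor. Ifi30 and Ctss lie near the dotted line of equal differences among monocyte and protease genes, while Cd74, Ciita and RT1-Da lie near 0.

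Class I presentation, the parallel pathway for peptides made inside the cell, was near the level of all genes. Of 15 genes bright enough 8 were higher on the downhill array, against 49.3% of all genes, with a median of 0.09. Of 14 genes 9 were higher on the uphill array, against 54.5%, with a median of 0.02. None was 1.5-fold higher or lower, against 3.33% and 2.34% of all genes for downhill and 3.28% and 3.07% for uphill. The immunoproteasome subunits Psmb8 (-0.16 and -0.40) and Psmb10 (0.38 and 0.03) and the peptide trimming enzyme Erap1 (0.17 and 0.56) had the largest differences along with RT1-CE16 (0.53 and 0.26). Of the genes that regulate class II at the surface or act beside it, Cd40 (0.12 and 0.21), Cd83 (0.22 and -0.10) and the ubiquitin ligase gene Marchf8 (-0.40 and -0.18) were bright enough. Icos, a costimulatory receptor on T cells that recognise class II, was lower on both running arrays (-0.48 and -0.25), and Cd4 was called absent on every array. Receptors for interleukin 4 and interleukin 10, which act on class II expression, were slightly higher, with Il4r at 0.16 and 0.17, Il10ra at 0.25 and 0.28 and Il10rb at 0.16 and 0.22. Stat3, which carries the interleukin 10 signal, was at -0.06 for downhill and 0.87 for uphill. The other class II genes RT1-Db2, RT1-Bb2, RT1-DOa, RT1-DOb and RT1-Ha had no probe set assigned to them alone under current symbols. No intensities are therefore given for them.

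The genes nearest to the median pattern of the 10 members, by distance between pairs of log2 differences from control, were Pdia4, Ctsa, Tmcc1, Ppp1r37 and 2510039O18Rikl, and 187 of 7165 genes lay within 0.1 of it. Nearest to Ifi30 were Dusp22 (0.79 and 0.78), Pld4 (0.74 and 0.79) and Inpp4b (0.88 and 0.86), and only 4 of 7165 genes lay within 0.1. Likeness over 3 arrays describes these arrays alone.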

How the data were processed

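Intensity values were deposited by the authors for 31099 probe sets of an Affymetrix rat expression array, normalized with RMA per the submitters' processing notes, on a linear scale (1 to 34067). No source used here names the software. Present, marginal or absent calls, transcript matches and alignments to Rnor3.4 come from the deposited annotation, and the series' value table held the same intensities.

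Here the intensities were converted to log2. Current symbols were taken from the GRCr8 RefSeq table by Entrez gene number (19186 of 19622 probe sets with 1 symbol matched). Members were rows whose symbol in the file equals a member, including rows with several symbols. The probe set with the highest mean log2 value stood for a gene, and comparisons count genes at 353 or above on at least 1 of the 2 arrays. Named genes are the 10 members, up to 4 of each list with the largest difference, and the genes nearest in pattern. Members and lists were chosen with earlier results of these data known. The 1.5-fold and 2-fold thresholds take the place of a test, since 1 array per group allows none, and the number of arrays limits the precision. The counting step was tested on simulated data. Python 3.11.15, pandas 2.3.3 and limma 3.58.1 were used.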

Additional observations from a re-analysis of the deposited data

Results flagged for a closer look

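Ciita was the only member whose brightest probe set lay on opposite sides of the control array on the running arrays, at a log2 difference of 0.01 for downhill and -0.18 for uphill. The downhill array was 0.19 above the uphill array on the log2 scale. The difference was not tested, since each group had 1 array, and it is below the median range of 0.22 between probe sets of a gene in that comparison.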

How the results depend on the processing

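No paired analysis was possible because each group had 1 array and the labels give no replicate numbers. A value was taken as moved where it shifted by more than the median range between probe sets of a gene (0.17 for downhill and 0.24 for uphill, each against control, and 0.22 between the running arrays). The median of the members stayed above 0 in both running comparisons under all 11 alternatives, from 0.19 to 0.51 and from 0.32 to 0.54. In the downhill comparison it was 0.51 when each gene was the mean of its probe sets, and 0.45 both with the dimmest probe set and without the 4 RT1-B and RT1-D chain genes. Between downhill and uphill it turned from -0.05 to 0.016 with quantile normalization. The number of members at least 1.5-fold higher went from 1 to 3 for downhill and from 2 to 4 for uphill, both with the mean and with the dimmest probe set. For uphill it was 1 with cyclic loess (span 0.7) and 1 with quantile normalization, which left Ctss under the threshold. At 2-fold it was counted only with the brightest probe set, where it was 0 in each comparison. Against control, RT1-Bb was past 2-fold with the mean (log2 differences of 2.84 and 2.98) and with the dimmest probe set, resting on its dim control value. RT1-Db1 was past 2-fold with the dimmest probe set (1.12 and 1.13). The dimmest probe set and the median without the chain genes were chosen after seeing the data. Of 306 values of single genes under an alternative, 16 moved, all of RT1-Ba, RT1-Bb or RT1-Db1 and all through the choice of probe set. Many of the 306 could not move, so this share does not measure stability. Changing the floor or leaving out the chain genes does not alter a gene's own difference, and 7 members have only 1 probe set. Further settings were no floor, a floor of 964, centring, and leaving out probe sets not present, binding several transcripts or carrying several symbols.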
